A study of Homo sapiens and Mus musculus with 213 samples.

Results

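The 42 genes described here encode proteins that make, recycle and balance nucleotides and polyamines. They were chosen by name, as the steps of pyrimidine and purine synthesis, deoxynucleotide synthesis, nucleotide salvage, polyamine synthesis and polyamine breakdown. The antizyme genes OAZ1 and OAZ2 were included with polyamine breakdown. All 42 were among the 58336 genes listed for each RNA-seq library, and all 42 passed the filter on low values (10 or more normalized counts on average), which 20884 genes passed. The study asked what a G-quadruplex (G4), a 4-stranded DNA structure folded from runs of guanine, does in the promoter of MYC. The RNA-seq part described here compared 2 lines of HEK293T, a human embryonic kidney cell line that carries the SV40 large T antigen, with 3 libraries for each line. MYC WT cells kept the natural G4 sequence upstream of MYC, and MYC MUT cells carried point mutations in its guanine runs. According to the study's methods the edit was made with CRISPR-Cas9 and homozygous clones were selected. The sources used here do not say how many clones the RNA-seq libraries came from. A difference between lines therefore cannot be told apart from a difference between clones. P-values measure only the spread between libraries. For the main fit this spread was estimated over all 9 RNA-seq libraries, of which 3 are not reported here. The file headers of the 3 MYC WT libraries carried an identifier with the letters SLX, and those of the 3 MYC MUT libraries did not. The sources used here do not say what it stands for. If it marks a difference in handling, that difference cannot be told apart from line.

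Cells build pyrimidine and purine rings from amino acids and phosphoribosyl pyrophosphate, recycle free bases and nucleosides through salvage, and reduce ribonucleotides to deoxynucleotides for DNA synthesis. Polyamines (putrescine, spermidine and spermine) are small cations that bind RNA and DNA, and ornithine decarboxylase, encoded by ODC1, makes the first of them. MYC is a transcription factor that binds DNA with its partner MAX at the E-box CACGTG, and ODC1 and CAD are textbook MYC targets.

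The E-boxes at these promoters are shown first because they are the sequences through which MYC is known to bind. RefSeq promoter windows (GRCh38.p14, 250 bases before to 50 bases after a start site) were found for 38 of the 42 genes, as 56 windows, and ADSL, IMPDH2, PAOX and SMOX were not searched. CACGTG, which reads the same on both strands, was in a window of 9 of the 38 genes (23.7%), compared with 12.3% of the 12244 tested genes and 8.77% of the 27305 genes that had a window. The 9 genes were DHODH, PPAT, PAICS, ATIC, DCK, NME1, AK4, ODC1 and SRM. The stretches below are 30 bases each, 5′ to 3′ on the gene's strand, with the E-box in capitals:
ODC1, chr2:10448024-10448053, minus strand, E-box 29 bases upstream of the start: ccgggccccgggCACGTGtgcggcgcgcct
ODC1, chr2:10447990-10448019, minus strand, E-box beginning at transcribed base 6: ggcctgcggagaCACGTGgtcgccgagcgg
SRM, chr1:11060200-11060229, minus strand, 199 bases upstream: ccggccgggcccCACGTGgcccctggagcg
PPAT, chr4:56435780-56435809, minus strand, 182 bases upstream: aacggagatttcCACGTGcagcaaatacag
ATIC, chr2:215312001-215312030, plus strand, 46 bases upstream: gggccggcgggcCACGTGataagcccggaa
DHODH, chr16:72008573-72008602, plus strand, 159 bases upstream: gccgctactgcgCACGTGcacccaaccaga

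Positions are counted from the start site of the RefSeq window that held the E-box. Among the polyamine genes with a window, the motif was in those of ODC1 and SRM, and ODC1 had 2 copies within one window. The other window of ODC1, at the gene start annotated in GENCODE (chr2:10448327), held none. Both copies thus lay inside the annotated gene, downstream of that start, as did the E-box printed for ATIC (annotated start chr2:215311956). PPAT and PAICS, which encode the first committed enzyme of purine synthesis and a later bifunctional enzyme, lie head to head with 126 bases between their annotated starts, and the E-box of PPAT was the same 6 bases (chr4:56435792-56435797) as the E-box found 41 bases into PAICS. The windows of CAD did not hold these letters, which says nothing of sequence outside the window. A match is a stretch of letters and not a measured binding site.

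The values are normalized counts, that is reads on a gene divided by a size factor for the library, and a log2 fold change is a difference between means of log2(normalized count + 1). The libraries held 68170323 to 79913764 reads on genes. MYC itself was at 20020, 28396 and 21580 normalized counts in the MYC WT libraries and at 10693, 11176 and 12400 in MYC MUT. All MYC MUT libraries were below all MYC WT libraries. The log2 fold change was -1.02 ± 0.19 (SE) in MYC MUT against MYC WT (limma adjusted p = 0.00182). With only the 2 lines fitted, the SE was 0.12. Embryonic kidney and HEK293T markers were present in both lines (8 of 8 at a mean of at least 10), with summed levels of 83343 to 94434 in MYC WT and 86601 to 98470 in MYC MUT. Neuronal markers, of which 5 of 6 had a mean of at least 10, summed to 695 to 892 in MYC WT and 1365 to 1456 in MYC MUT. CD3E and PECAM1, which define T cells and endothelium, did not exceed 1.95 in any library, while endothelial markers as a list summed to 0.963 to 12.3 in MYC WT and 29.2 to 42.5 in MYC MUT. Fibroblast markers, mostly COL1A1, summed to 1068 to 1246 and 1887 to 1986 in the same order. The part of any of these markers in the results was not tested.

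The 42 genes together took 0.790% to 0.836% of all normalized counts in every library. Per kilobase of exon, OAZ1 was the most abundant in MYC WT at 15046 normalized counts, followed by ODC1 (10904), SRM (10482), APRT (10111) and HPRT1 (9157). At the other end were TK2 (63.8), PAOX (185), DHODH (238) and SMOX (279). The means of ODC1, SRM and APRT in this ordering differed by less than the spread of ODC1 between the MYC WT libraries (coefficient of variation 13.5%), so their order is not resolved. In MYC MUT, TK1 stood at 10010 per kilobase, close to ODC1 (10358), whereas SRM stood at 6742.

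**Figure D1:**
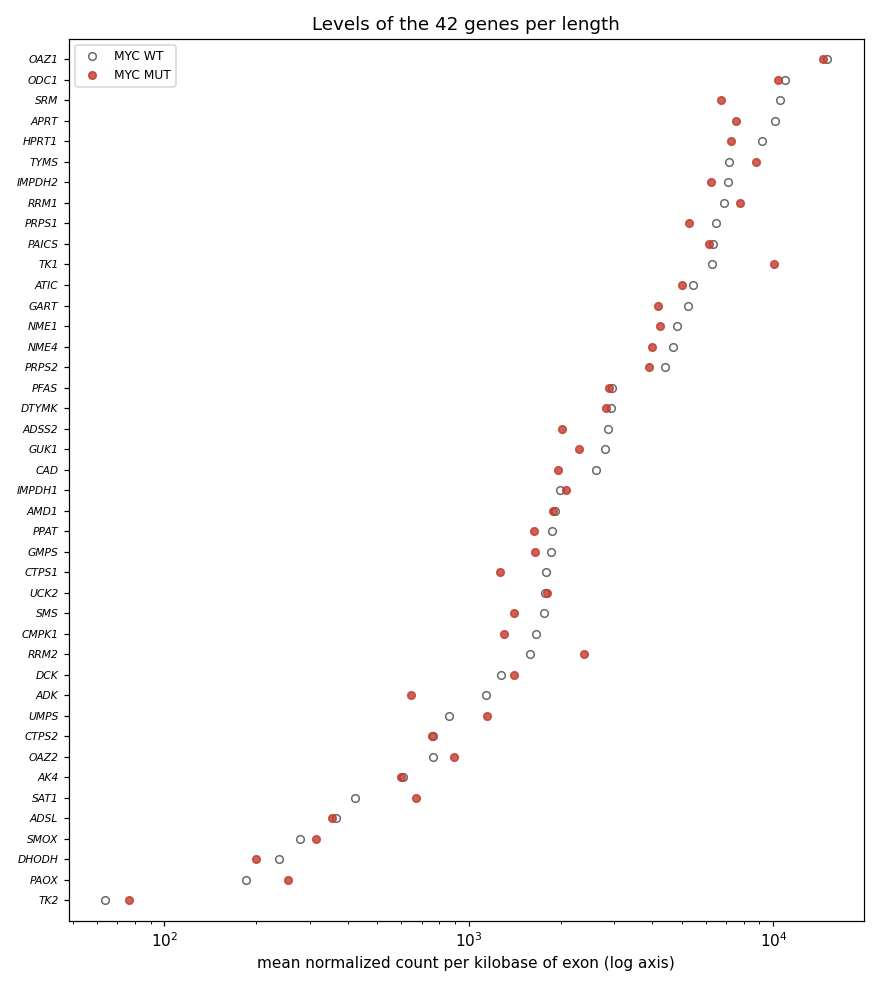
Mean normalized count per kilobase of exon (horizontal, log axis) for each of the 42 genes (vertical, ordered by MYC WT), with open circles for MYC WT and red for MYC MUT. The lines lie close together over a range from 63.8 (TK2) to 15046 (OAZ1) in MYC WT, with ADK, SRM, TK1 and RRM2 among the genes whose red point stands apart.

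A gene was called changed where the limma adjusted p was under 0.05 and the log2 fold change was beyond 0.5 in either direction, the thresholds of the study. In MYC MUT against MYC WT, 3 of the 42 genes were called higher (TK1, SAT1 and RRM2), compared with 11.3% of all tested genes. Another 3 were called lower (ADK, SRM and CTPS1), compared with 10.1% of all tested genes. These shares are close to or below the background. The median log2 fold change of the 42 genes was -0.06, with 29 below 0 and 13 above. That of all tested genes was -0.0034, with 49.7% of them above 0. The split of the 42 genes depended on the scaling: with each library scaled to equal totals, 20 genes lay below 0 and 22 above. The median of the 42 genes was then 0.016, and that of all tested genes moved as well, to 0.071. Without MYC WT replicate 2 the median of the 42 genes was -0.149, and that of all tested genes was -0.0052. The remaining 36 genes lay within 0.5, as did 73.2% of all tested genes. Still, 23 of the 42 (8 higher, 15 lower) had an adjusted p under 0.05, compared with 38.4% of all tested genes. The libraries of the 2 lines did not overlap for 28 of the 42 genes, compared with 52.3% of all tested genes. With equal totals 5 were called higher and 2 lower, and the split over all tested genes moved from 2365 higher and 2111 lower to 2874 higher and 1600 lower.

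**Figure D2:**
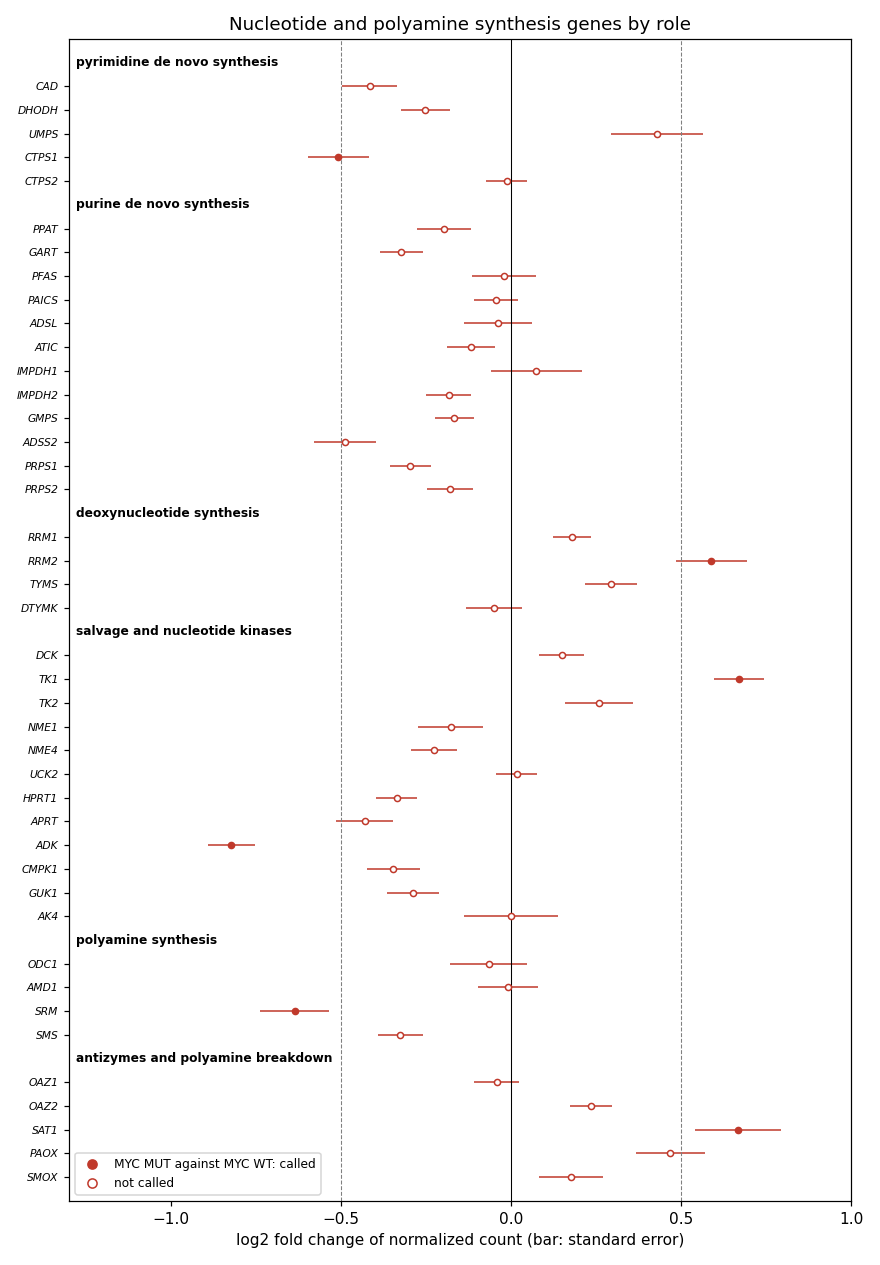
Log2 fold change of the normalized count (horizontal) for each of the 42 genes (vertical, grouped by role), in MYC MUT against MYC WT, with bars for the standard error, filled points for called genes and dashed lines at 0.5 in each direction. The 6 filled points are CTPS1, ADK and SRM on the left, and RRM2, TK1 and SAT1 on the right.

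In polyamine synthesis 1 of 4 genes was called lower and none higher, compared with 10.1% and 11.3% of all tested genes. The median log2 fold change of the 4 genes was -0.20. ODC1, the entry enzyme, was at 39229, 30468 and 38483 normalized counts in MYC WT and at 36099, 32424 and 34233 in MYC MUT. The MYC MUT libraries lay within the range of MYC WT, and the log2 fold change was -0.07 ± 0.11 in MYC MUT (limma adjusted p = 0.676). AMD1, which makes the aminopropyl donor for spermidine and spermine, was at 22071, 18096 and 18256 in MYC WT and at 19728, 18618 and 19423 in MYC MUT, again overlapping, and its log2 difference between MYC MUT and MYC WT was -0.01 ± 0.09 (limma adjusted p = 0.938). MYC transcript was at 49.0% of its MYC WT mean in the same MYC MUT libraries, in which ODC1 was at 95.0% and AMD1 at 98.9%.

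SRM, spermidine synthase, was the gene that was called. It was at 21176, 18090 and 20295 normalized counts in MYC WT and at 12770, 11789 and 13747 in MYC MUT. Every MYC MUT library was below every MYC WT library, and the mean was 64.3% of that of MYC WT. The log2 fold change was -0.64 ± 0.10 (limma adjusted p = 0.00059), a call that held under all 20 alternatives, from -0.70 to -0.56. SMS, spermine synthase, was at 3749 ± 150 (SD, n = 3) in MYC WT and 2991 ± 109 in MYC MUT. Its log2 fold change of -0.33 ± 0.07 in MYC MUT passed the test (limma adjusted p = 0.00268) but not the fold threshold. The normalized counts of the 4 genes summed to 87.5% of MYC WT in MYC MUT.

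Among 5 genes that oppose polyamine accumulation, 1 was called higher and none lower, compared with 11.3% and 10.1% of all tested genes. The median of the 5 genes was 0.23. SAT1, the acetyltransferase that commits spermidine and spermine to breakdown or export, was at 926, 1189 and 1040 normalized counts in MYC WT and at 1599, 1794 and 1599 in MYC MUT. All MYC MUT libraries were above all of MYC WT, and the log2 fold change was 0.67 ± 0.13 (limma adjusted p = 0.00181). PAOX, a peroxisomal polyamine oxidase, was at 406, 403 and 438 in MYC WT and at 569, 585 and 571 in MYC MUT. The lines did not overlap. Its log2 fold change of 0.47 ± 0.10 in MYC MUT (limma adjusted p = 0.00394) fell short of the fold threshold, but passed it without MYC WT replicate 3 (0.51), with equal totals (0.54) and with equal upper quartiles (0.51). SMOX, spermine oxidase, differed by 0.18 on the log2 scale (limma adjusted p = 0.167). OAZ1, an antizyme that directs ornithine decarboxylase to degradation, differed by -0.04 (limma adjusted p = 0.648), and OAZ2 rose by 0.23 (limma adjusted p = 0.0111) without passing the fold threshold. GENCODE v44 places 61.0% of the exon bases of PAOX inside an overlapping protein-coding gene on the same strand, which averaged 0.67 normalized counts.

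In pyrimidine synthesis, 1 of 5 genes was called lower and none higher, compared with 10.1% and 11.3% of all tested genes. CAD, the trifunctional enzyme of the first 3 steps, was at 22717, 22982 and 20689 normalized counts in MYC WT and at 16681, 15382 and 17705 in MYC MUT. Every MYC MUT library was lower than every MYC WT library. CAD fell to 75.0% of MYC WT in MYC MUT, and the log2 difference of -0.42 ± 0.08 passed the test (limma adjusted p = 0.0021) and not the fold threshold.

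CTPS1, one of 2 enzymes that turn UTP into CTP, was at 23352, 19667 and 21486 normalized counts in MYC WT and at 16014, 14737 and 14532 in MYC MUT. The lines did not overlap. Its log2 fold change of -0.51 ± 0.09 (limma adjusted p = 0.00117) lay at the threshold, and the call was lost in 6 of 20 alternatives. It was -0.45 without MYC WT replicate 1, -0.49 without MYC MUT replicate 2, -0.48 without MYC MUT replicate 3, -0.43 with equal totals, -0.47 with equal upper quartiles and -0.496 with edgeR. CTPS2, the other CTP synthase, differed by -0.01 on the log2 scale (limma adjusted p = 0.879). DHODH, the mitochondrial step, fell by 0.25 on the log2 scale (limma adjusted p = 0.0167), but did not pass the test in 5 of 20 alternatives. UMPS, which forms UMP, went up by 0.43 (limma adjusted p = 0.0279), and passed the fold threshold without MYC WT replicate 1 (0.56) and with equal totals (0.50). It did not pass the test in 6 of 20 alternatives, which were limma without a trend (adjusted p = 0.0655) and leaving out any 1 of the other 5 libraries (limma adjusted p = 0.0563 to 0.107), with the log2 fold change at its lowest, 0.31, without MYC WT replicate 2.

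In purine synthesis none of 12 genes was called, compared with 11.3% of all tested genes called higher and 10.1% called lower. The median log2 fold change was -0.17. An adjusted p under 0.05 was found for 4 of the 12, all lower, compared with 38.4% of all tested genes. ADSS2, which commits IMP towards AMP, came closest at -0.49 ± 0.09 (limma adjusted p = 0.00149). It passed the fold threshold without MYC WT replicate 2 (-0.56), without MYC MUT replicate 1 (-0.51) and without MYC MUT replicate 2 (-0.52). GART, a trifunctional enzyme, fell by 0.32 (limma adjusted p = 0.00216), PRPS1, which makes phosphoribosyl pyrophosphate, by 0.30 (limma adjusted p = 0.00261) and GMPS, which makes GMP, by 0.17 (limma adjusted p = 0.0423). GMPS did not pass the test in 13 of 20 alternatives. The log2 fold change was -0.20 for PPAT (limma adjusted p = 0.0721) and -0.04 for its head-to-head neighbour PAICS (limma adjusted p = 0.617). PFAS, ADSL, ATIC, IMPDH1, IMPDH2 and PRPS2 lay between -0.18 and 0.07, and none of them passed the test. IMPDH2 (limma adjusted p = 0.0501) and PRPS2 (limma adjusted p = 0.0548) came close, and passed in 6 and 5 of 20 alternatives. Summed over the 12 genes, normalized counts were at 88.9% of MYC WT in MYC MUT.

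In deoxynucleotide synthesis 1 of 4 genes was called higher and none lower, compared with 11.3% and 10.1% of all tested genes. An adjusted p under 0.05 was found for 3 of the 4, all higher in MYC MUT, compared with 38.4% of all tested genes. RRM2, the small subunit of ribonucleotide reductase, whose level is known to follow the cell cycle, was at 16588, 13133 and 14015 normalized counts in MYC WT and at 23062, 22184 and 20295 in MYC MUT. All MYC MUT libraries were above those of MYC WT. The log2 fold change was 0.59 ± 0.10 (limma adjusted p = 0.00111). TYMS, thymidylate synthase, was at 18468, 15835 and 17653 in MYC WT and at 21441, 21316 and 20817 in MYC MUT. MYC MUT was again above every MYC WT library, but the log2 fold change of 0.29 ± 0.08 (limma adjusted p = 0.0103) was below the fold threshold. RRM1, the large subunit, rose by 0.18 (limma adjusted p = 0.0259) and did not pass in 5 of 20 alternatives, and DTYMK, which phosphorylates dTMP, differed by -0.05 (limma adjusted p = 0.657). The summed normalized count of these 4 genes was 122% of MYC WT in MYC MUT. ENOSF1, on the opposite strand, shares 39.9% of the exon bases of TYMS and had 7.82% of its count.

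Of 12 salvage genes and nucleotide kinases, 1 was called lower and 1 higher, compared with 10.1% and 11.3% of all tested genes. An adjusted p under 0.05 was found for 7 of the 12, compared with 38.4% of all tested genes. ADK, adenosine kinase, was at 5162, 5305 and 5451 normalized counts in MYC WT and at 2875, 3042 and 3083 in MYC MUT. The lines were far from overlapping. In MYC MUT the mean of ADK was 56.5% of that of MYC WT, or -0.82 ± 0.07 on the log2 scale (limma adjusted p = 8.46e-06). TK1, the cytosolic thymidine kinase of dividing cells, was at 11684, 10805 and 12328 in MYC WT and at 17624, 18145 and 19638 in MYC MUT. The MYC MUT libraries were all higher, at 159% of the MYC WT mean (log2 fold change 0.67 ± 0.07, limma adjusted p = 4.99e-05).

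Among the other salvage genes and nucleotide kinases, both purine phosphoribosyltransferases were lower without passing the fold threshold. APRT, which salvages adenine, fell by 0.43 (limma adjusted p = 0.00212), or by 0.51 without MYC MUT replicate 3, and HPRT1, which salvages hypoxanthine and guanine, fell by 0.34 (limma adjusted p = 0.00128). The monophosphate kinases CMPK1 and GUK1 fell by 0.35 and 0.29 (limma adjusted p = 0.0046 and 0.0115), and NME4, a mitochondrial diphosphate kinase, by 0.23 (limma adjusted p = 0.0218), which did not pass in 5 of 20 alternatives. NME1, another diphosphate kinase, had a log2 fold change of -0.18, DCK, deoxycytidine kinase, one of 0.15, TK2, mitochondrial thymidine kinase, one of 0.26, and UCK2, uridine-cytidine kinase, one of 0.02, and none of these passed the test. TK2 (limma adjusted p = 0.064) passed in 5 of 20 alternatives, NME1 in 2 and DCK in 1. AK4, a mitochondrial adenylate kinase, averaged 4613 normalized counts in MYC WT and 4542 in MYC MUT, with the widest spread of the 42 genes between MYC WT libraries (coefficient of variation 22.9%).

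Ratios of partner genes within a library do not depend on how libraries were scaled. CTPS1 to CTPS2, per kilobase of exon, was 2.67, 2.12 and 2.31 in MYC WT and 1.79, 1.59 and 1.64 in MYC MUT. The ratio was lower in every MYC MUT library, at 70.7% of MYC WT. RRM2 to RRM1 was 0.231 ± 0.0281 (SD, n = 3) in MYC WT and 0.307 ± 0.0187 in MYC MUT, without overlap. SRM to SMS was 5.97 ± 0.667 in MYC WT and 4.80 ± 0.295 in MYC MUT, again without overlap. TK1 to TK2 was 99.0 ± 9.87 and 132 ± 12.7 in the same order, with MYC MUT above every MYC WT library. ODC1 to OAZ1 overlapped between the lines (0.723 ± 0.0652 and 0.710 ± 0.0282). PRPS1 to PRPS2 was 1.47 ± 0.0695 in MYC WT and 1.36 ± 0.0549 in MYC MUT, where the highest MYC MUT library was just below the lowest of MYC WT. OAZ1 to OAZ2 was 19.8 ± 1.69 in MYC WT and 16.3 ± 0.412 in MYC MUT, without overlap. IMPDH2 to IMPDH1 overlapped (3.66 ± 0.825 and 3.01 ± 0.177, exact permutation p = 0.4), as did NME1 to NME4 (1.03 ± 0.110 and 1.06 ± 0.0654, exact permutation p = 0.8). Of the 9 ratios computed, 6 did not overlap between the lines, compared with 52.3% of all tested genes taken singly. Among these, CTPS1 to CTPS2, RRM2 to RRM1, SRM to SMS and TK1 to TK2 each held a gene called above. Where the lines did not overlap, the two-sided exact permutation p was 0.1, the smallest that 3 libraries against 3 allow, so no ratio could pass 0.05.

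Some of the called genes lay among neighbours that were lower as well. The median log2 fold change of the tested genes within 5 Mb, in MYC MUT against MYC WT, ranged from -0.36 to 0.25 over the 42 genes. Around SRM it was -0.36 (111 neighbours) and around CTPS1 it was -0.36 (160 neighbours), both on chromosome 1, and around ADK on chromosome 10 it was -0.30 (98 neighbours). CMPK1 on chromosome 1 and HPRT1 on chromosome X had log2 fold changes of -0.35 and -0.34, and medians around them of -0.31 and -0.32. Around RRM2, TK1 and SAT1 the medians were -0.01, -0.0045 and 0.19. Relative to the median of their neighbours, 3 of the 6 called genes (ADK, RRM2 and TK1) remained beyond 0.5, and SRM, CTPS1 and SAT1 did not. The part of these regional shifts in the changes of single genes was not tested.

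For the 9 genes with an E-box in their window, log2 fold changes in MYC MUT against MYC WT had their median at -0.12 and ranged from -0.64 (SRM) to 0.15 (DCK), and 1 of them was called. The other 29 genes with a window had a median of -0.05, and 5 were called, 2 lower and 3 higher. Over all tested genes 10.1% were called lower and 11.3% higher. ODC1, with the 2 E-boxes printed above, was among the genes that did not pass the test, whereas SRM, with 1, was the lowest of the 9.

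Replicate 1 was the highest library of its line for 21 of the 42 genes and the lowest for 8 in MYC WT, and the highest for 21 and the lowest for 11 in MYC MUT. Replicate 2 was the lowest for 27 in MYC WT and for 17 in MYC MUT. The median coefficient of variation over the 42 genes was 6.77% in MYC WT and 3.61% in MYC MUT. For ODC1 the gap between MYC WT replicates 1 and 2 (39229 and 30468) was wider than the gap between the means of the lines (36060 and 34252).

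Other genes of the same pathways, listed alongside the 42, gave these counts in MYC MUT against MYC WT. Of 16 tested polyamine genes outside the 42, none was called higher and 5 were called lower, compared with 11.3% and 10.1% of all tested genes. The 5 genes are described next. They were AGMAT (-5.05), annotated as an agmatinase, which fell from a mean of 222 normalized counts to 5.76, SLC18B1 (-1.32), a vesicular polyamine transporter, SLC7A1 (-0.96), which imports arginine, MTAP (-0.96), which recycles the by-product of spermidine and spermine synthesis, and ATP13A2 (-0.54), a lysosomal polyamine exporter. With equal totals 4 were called lower. The median of the 16 genes was -0.13.

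Of 48 tested nucleotide genes outside the 42, 5 were called higher and 3 lower, with a median of 0.01. For this and the following lists, the shares over all tested genes were 11.3% called higher and 10.1% called lower. The higher ones were CMPK2 (from a mean of 10.3 normalized counts to 24.4), a mitochondrial nucleotide kinase, AMPD3 (0.86), an AMP deaminase, AK9 (0.81), an adenylate kinase, SAMHD1 (0.55), which degrades deoxynucleotide triphosphates, and NME6 (0.51), of the diphosphate kinase family. The lower ones were NT5C1A (-0.55), a nucleotidase, GMPR (-0.54), GMP reductase, and AMPD2 (-0.54), another AMP deaminase, and with equal totals none was called lower. Of 29 S-phase genes, 2 were called higher (E2F1, 0.58, and FEN1, 0.58) and 3 lower (CDT1, -0.98, DSCC1, -0.66, and LIG1, -0.52), with a median of 0.01, and with equal totals 3 were called higher and 2 lower. Of 18 genes of G2 and mitosis none was called in either direction (2 were called higher with equal totals), with a median of -0.01. An adjusted p under 0.05 was found for 8 of the 18, compared with 38.4% of all tested genes. RRM2, TK1 and TYMS were higher in MYC MUT, as were E2F1 and FEN1 of the S-phase list. CDT1, DSCC1 and LIG1 of that list were lower, and its median was close to 0. Whether the cell cycle had a part in these changes was not tested.

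Reads counted on processed pseudogenes could bear on the levels of some parent genes, which was not tested. The study's methods name bwa mem for alignment to the genome, an aligner that does not join exons across introns, so a read over an exon junction can match a processed pseudogene along its whole length. Pseudogenes named after PAICS held 25.7% as many counts as PAICS itself, those of PPAT 16.7% and those of RRM2 13.7%. For RRM2 the pseudogenes were at 2056 ± 100 (SD, n = 3) in MYC WT and 2950 ± 128 in MYC MUT, so that MYC MUT was higher for them as for the gene. The log2 ratio of mean counts in MYC MUT to MYC WT was 0.58 for RRM2 alone, 0.52 for its pseudogenes and 0.58 for both together. For SRM, pseudogenes held 0.182% of the gene's count.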

How the data were processed

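RNA was measured in 9 of the series' 213 samples, grouped by title, of which the 3 MYC WT and 3 MYC MUT libraries are described. According to the study's methods, poly(A) RNA was sequenced from a directional kit, reads were aligned to GRCh38 with bwa mem, duplicates were removed with Picard and genes came from GENCODE release 42. The counting tool and its use of strand are not given in the sources used here. The deposited values are a signal: read counts per gene that the authors divided by a size factor for each library. They came out as whole reads for 100% of values when multiplied back (tolerance 1e-06). The submitters' processing notes for the series also name BWA 0.7.17-r2188 and cutadapt 1.18.

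From these values, log2(normalized count + 1) was fitted for genes with a mean of at least 10, with limma 3.58.1 (R 4.3.3, empirical Bayes with a trend), the 9 libraries together (results for the other 3 are not reported here), and Benjamini-Hochberg adjustment over 20884 genes. Fold changes therefore understate changes of low genes. Single ratios were compared by a two-sided exact permutation test. Alternatives were edgeR 4.0.16 and DESeq2 1.42.0 (both run on the recovered reads), further scalings, filters and pseudocounts, a replicate block, and leaving out each library. Depth was 68170323 to 79913764 reads on genes, and the lowest of the 42 genes, PAOX, had at least 359 reads in every library. Identifiers were matched to GENCODE v44 (57754 of 58336), which gave exon lengths, overlaps and neighbours.

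All 42 genes are named. Values in every library are given for MYC, for genes called in MYC MUT against MYC WT, and for ODC1, CAD, SRM, AMD1, RRM2, TYMS and TK1. Other genes of the lists are named where called in MYC MUT against MYC WT. PAOX was given in every library after its values were seen. The 42 genes and the lists were chosen with earlier results of these data known. The CUT&Tag, Chem-map and nuclease samples were not analysed here.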

Additional observations from a re-analysis of the deposited data

How the results depend on the processing

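Counts and medians over the 42 genes were recomputed under each alternative. In MYC MUT against MYC WT, genes called higher numbered 5 with equal totals, 8 without a fold threshold and 0 beyond a log2 fold change of 1, and genes called lower numbered 15 and 0 under the last 2. Leaving out 1 library gave 3 to 4 higher and 2 to 4 lower. The median of -0.06 changed sign with equal totals (0.016) and became -0.020 with equal upper quartiles and -0.149 to -0.039 without 1 library (-0.149 without MYC WT replicate 2, -0.088 without MYC MUT replicate 1). The median of all tested genes, -0.0034 in the main fit, was 0.071 with equal totals and 0.035 with equal upper quartiles. It stayed above that of the 42 genes under both scalings. The labels give both lines the same replicate numbers, but deviations of same-numbered libraries from their line means correlated at 0.328, 0.146 and 0.0490, not all above a minimum of 0.1, and MYC MUT replicate 2 correlated best with MYC WT replicate 3 (0.154), so the numbers were not taken to pair the libraries. With the replicate block 3 genes were called higher and 3 lower, no call of a single gene changed, the median stayed at -0.06 and the calls over all tested genes numbered 2605 higher and 2365 lower. Where a count or median shifted for reasons other than the threshold or library changed, the cause was not tested. With 3 libraries a line, small differences cannot be resolved: the standard error of a log2 fold change was 0.06 for RRM1 and 0.14 for AK4.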

Other observations

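Pseudogene records moved differently from their parent genes in some cases. The listed pseudogenes of AK4 had summed normalized counts of 324 ± 15.7 (SD, n = 3) in MYC WT and 267 ± 17.9 in MYC MUT, a log2 ratio of means of -0.28, whereas that of AK4 was -0.02. The pseudogene of OAZ1 was at 154 ± 9.63 in MYC WT and 203 ± 8.55 in MYC MUT (log2 ratio 0.40), whereas the ratio of OAZ1 was -0.04. PAICSP4 alone averaged 11251 normalized counts over the 6 libraries, and the pseudogenes of PAICS summed to 12101 ± 485 in MYC WT and 11926 ± 123 in MYC MUT.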
